A study of Mus musculus with 6 samples.

Results

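The organic ion and drug transporters of the kidney are described here as 41 genes of the Slc22a, Slco, Slc47a, Slc13a, Abcc and Abcb1 families plus Abcg2, out of 13696 genes in the deposited tables. They were taken by name, leaving out Slc22a5 and Slco2a1, and each reached 1 FPKM in at least 3 of 6 libraries. FPKM counts fragments for each kilobase of a transcript, scaled by library size, and the values of a gene's listed transcripts were summed. The 3 fat-1 libraries came from kidneys whose genotype label is fat-1 knockin. This gene comes from a nematode, and its desaturase enzyme turns omega-6 into omega-3 fatty acids. The 3 WT libraries came from kidneys labelled wild type. All mice were 24 months old, and the fat-1 transcript itself was not analysed here. The promoter that drives fat-1, sex, feeding and drug exposure are not in the labels used here. The titles of the fat-1 samples carry numbers whose meaning is not stated, so fat-1 replicates are numbered here in the order of the sample list, while WT titles end in 1 to 3. The labels do not state whether each library is its own mouse, and the p-values reflect no more than the variation seen among the 6 libraries.

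The proximal tubule clears organic anions and cations in a pair of steps. Carriers of the basolateral membrane take them up from blood: the OAT proteins exchange organic anions for dicarboxylates that Slc13a3 brings in with sodium, and the OCT proteins admit organic cations along the membrane potential. Pumps and exchangers of the apical membrane then pass them into urine, with ATP-driven ABC transporters moving anions and conjugates and MATE1 trading cations for protons. Other apical carriers take back urate, sulfate and citrate from the filtrate.

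By family, 18 members were Slc22a genes, 8 Abcc, 6 Slco, 4 Slc13a, 3 Abcb1 and 1 Slc47a, with Abcg2 as the last. The name prefix also takes in Abcb10, a mitochondrial transporter, and Abcc9, a subunit of ATP-sensitive potassium channels, neither of which is a drug carrier of the tubule membrane. Of the members, 36 reached 1 FPKM in every library. The other 5, Abcb1a, Abcc3, Slc13a4, Slc22a29 and Slco4a1, did so in 3 to 5 libraries, and Slc13a4 did so in all 3 fat-1 libraries but in 1 WT library. Slc22a3, Slc13a5 and Slc22a15 were listed below the level rule, with highest values of 0.880, 0.701 and 0.757 FPKM, while Abcc3, just inside it, reached 1 FPKM in exactly 3 libraries. On chromosome 19 lay 9 members, 8 of them Slc22a genes, and 6 lay on chromosome 6.

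Summed FPKM per library was between 387488 and 431081, and the members took between 0.640% and 0.742% of it in fat-1 and between 0.547% and 0.731% in WT. WT replicate 1 stood apart. Its correlations of log2 values with the other 5 libraries lay between 0.938 and 0.942, against 0.946 to 0.972 for every other pair, and the macrophage gene Lyz2 measured 29.2 to 71.7 FPKM in fat-1, against 447 FPKM in WT replicate 1 and 25.0 and 41.7 FPKM in the other WT libraries. Among the members it lay below both other WT libraries for 22 of 41 and above both for 11, where the shares over all tested genes were 26.4% and 49.0%. Results are therefore also given without it where that changes a call. Proximal tubule S1 and S2 markers were a list of 10 genes with no member in it and none at 0. They summed to between 1624 and 2334 FPKM in fat-1 and between 2150 and 2302 FPKM in WT. Slc34a1 made up most of that sum in each library. The median log2 difference was -0.15, with 0 genes called. Of the 10 genes, 8 had a negative and 2 a positive log2 difference, all with overlapping groups. The 5 intercalated cell markers summed to between 61.9 and 66.4 FPKM in fat-1 and between 98.5 and 104.8 FPKM in WT, and the 4 distal convoluted tubule markers to between 165 and 258 FPKM in fat-1 and between 298 and 447 FPKM in WT, with none at 0 and 0 called. For 4 of the 5 intercalated cell markers, but 1 of the 4 distal convoluted tubule markers, every fat-1 library lay below every WT library. Over all tested genes that share was 6.86%. The part of these markers in the transporter values was not tested.

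None of the 41 members passed the test between fat-1 and WT. Limma called 0 members at a Benjamini-Hochberg adjusted p of 0.05 over the 11698 tested genes, while over all tested genes 21 were called, or 0.18%, of which 14 were higher (0.12%) and 7 lower (0.0598%). At an unadjusted p under 0.05 there were 12 members, 9 higher and 3 lower in fat-1, or 29.3% of the members, beside 9.97% of all tested genes (5.80% higher and 4.16% lower). Also 12 members, 10 higher and 2 lower, had fat-1 and WT libraries that did not overlap, again 29.3% beside 15.2% of all tested genes. Both counts include Slc13a4, which met the level rule through fat-1, with 3 fat-1 libraries but 1 WT library at 1 FPKM. A positive difference was found for 21 of the 41 members, beside 51.2% of all tested genes. The median log2 difference was 0.01 over the members and 0.01 over all tested genes, so the members stood on both sides of 0, from -1.80 for Slc22a7 to 1.83 for Abcc4. In such tissue RNA, fewer cells of a type and less RNA per cell cannot be told apart.

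**Figure D1:**
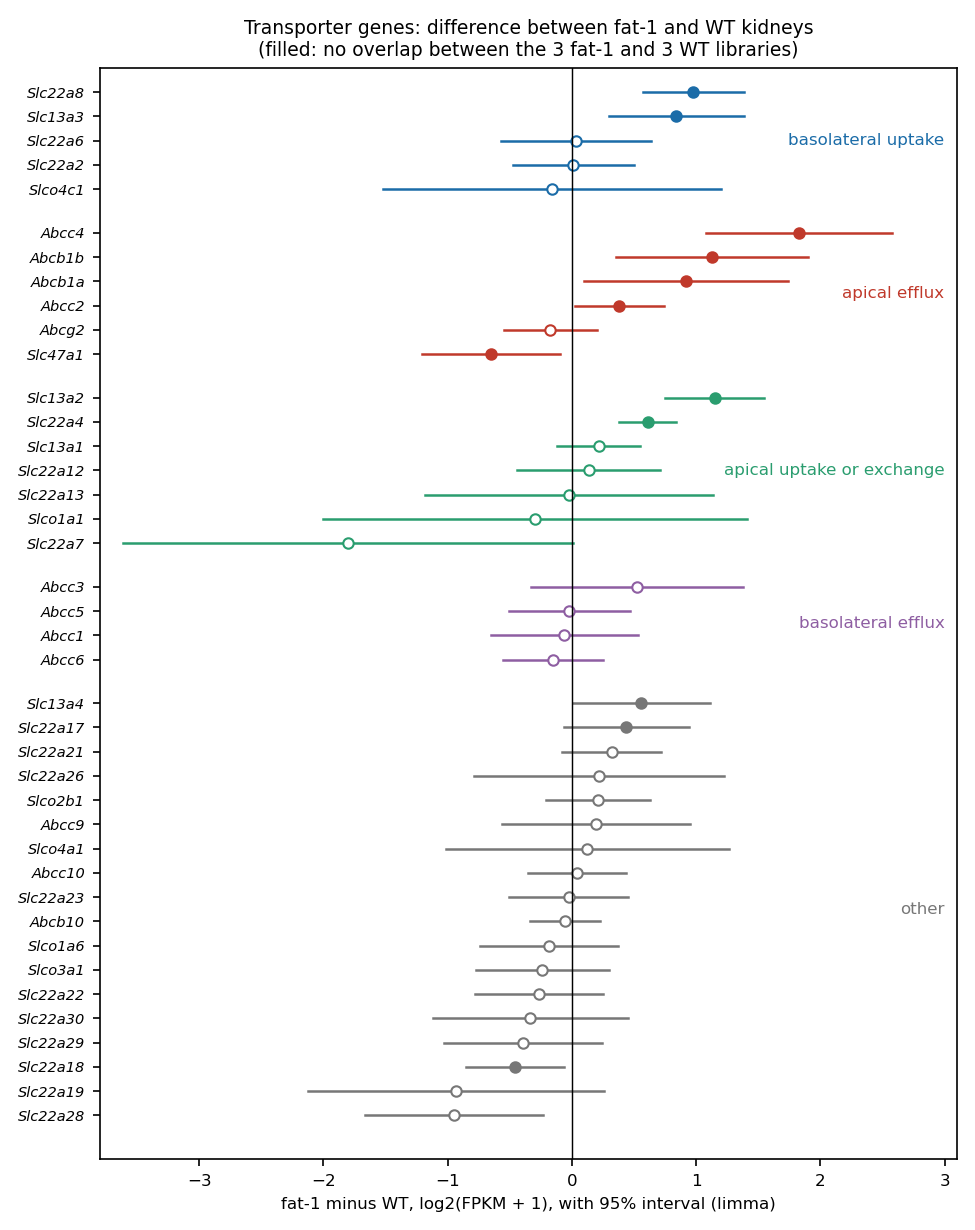
Log2 difference of 40 of the transporter genes, taken as fat-1 minus WT of log2(FPKM + 1), with the 95% interval from limma (3 libraries per group), by role. Filled points are the 12 genes whose groups did not overlap. Abcc4 lies farthest to the right at 1.83 and Slc22a7 farthest to the left at -1.80.

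Among the basolateral uptake genes, Slc22a8 and Slc13a3 stood higher in fat-1 while the other 4 members overlapped. Slc22a8 encodes OAT3, which takes up bulky organic anions such as conjugated steroids and many drugs (chr19:8591254-8611834, mm10). It measured 257, 269.8 and 181 FPKM in fat-1 libraries 1 to 3 and 112, 123 and 118 FPKM in WT libraries 1 to 3. Every fat-1 library lay above every WT library, and the WT values were close together while fat-1 replicate 3 lay below the other fat-1 libraries. The log2 difference was 0.98 ± 0.17 (SE), about 2.01 times on the FPKM means, with a limma adjusted p of 0.103. It passed only when libraries were rescaled to an equal sum (log2 difference 1.00, adjusted p = 0.0497).

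Slc13a3 encodes NaDC3, the sodium-dicarboxylate carrier that keeps the OAT exchange supplied (chr2:165405028-165473230). It measured 314, 315 and 273 FPKM in fat-1 and 118, 216 and 183 FPKM in WT, so the groups did not overlap and WT replicate 1 was the lowest library. The log2 difference was 0.84 ± 0.23 (SE; limma adjusted p = 0.251).

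Slc22a6, encoding OAT1, the main uptake carrier for small organic anions such as para-aminohippurate, lies 6161 bases beyond Slc22a8 on the same strand of chromosome 19. It measured 228, 242 and 168 FPKM in fat-1 and 145, 265 and 224 FPKM in WT. The groups overlapped fully, and the log2 difference was 0.04, with a 95% interval from -0.57 to 0.64. The difference between the Slc22a8 and Slc22a6 changes was not tested. Without WT replicate 1, Slc22a6 differed by -0.21.

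Slc22a2, encoding the organic cation carrier OCT2, measured 152, 139 and 141 FPKM in fat-1 and 103, 172 and 163 FPKM in WT. Its fat-1 libraries lay inside the WT range, with a difference of 0.01 and an interval from -0.48 to 0.50, and the sign turned under some scalings. Slco4c1, a basolateral carrier of digoxin and thyroid hormone in rat and human, was low and uneven at 4.68, 1.78 and 11.8 FPKM in fat-1 and 3.70, 9.13 and 4.97 FPKM in WT.

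The apical efflux genes differed more among themselves. Abcc4 encodes MRP4, an ATP-driven pump for urate, cyclic nucleotides, prostaglandins and drug conjugates (chr14:118482692-118706219). It measured 34.2, 31.3 and 22.3 FPKM in fat-1 and 12.4, 5.53 and 5.77 FPKM in WT. The lowest fat-1 library was above the highest WT library, which was replicate 1. The log2 difference was 1.83 ± 0.31 (SE), with a 95% interval from 1.08 to 2.57 and a ratio of FPKM means of 3.70. The limma adjusted p was 0.103, and without WT replicate 1 the gene was called (log2 difference 2.16, adjusted p = 0.0323).

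The 2 P-glycoprotein genes, which encode the MDR1 pump for bulky lipophilic drugs, lie side by side on chromosome 5. Abcb1b measured 7.56, 6.33 and 12.7 FPKM in fat-1 and 4.65, 3.92 and 1.96 FPKM in WT, with fat-1 replicate 3 highest (log2 difference 1.13 ± 0.32 (SE); limma adjusted p = 0.278). Abcb1a measured 3.75, 3.86 and 4.68 FPKM in fat-1 and 3.61, 1.31 and 0.808 FPKM in WT, where WT replicate 1 came close to the fat-1 libraries (0.92 ± 0.34; adjusted p = 0.442). In GENCODE M21 transcripts, 16.3% of the 50-base windows of Abcb1a also occur in Abcb1b, so the division of reads between the pair is uncertain. P-glycoprotein is also made by endothelial cells. The 6 endothelial markers, none at 0, summed to between 138 and 191 FPKM in fat-1 and between 63.5 and 75.9 FPKM in WT. All 6 had separated groups with fat-1 higher, beside 8.33% of all tested genes. Only Plvap among them was called, with a limma adjusted p of 0.0496, beside 0.12% of all tested genes called higher. The part of these markers in the Abcb1 values was not tested.

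Abcc2, encoding MRP2, the apical pump for glutathione and glucuronide conjugates, measured 92.8, 123 and 92.6 FPKM in fat-1 and 76.1, 85.6 and 72.3 FPKM in WT. The groups did not overlap, though the gap was small (log2 difference 0.38 ± 0.15 (SE); limma adjusted p = 0.463). Abcg2, the BCRP pump that exports urate, was the most abundant efflux gene at 173, 191 and 132 FPKM in fat-1 and 186, 178 and 189 FPKM in WT. Its groups overlapped, with a log2 difference of -0.17 and a 95% interval from -0.55 to 0.20. Slc47a1 encodes MATE1, the proton-driven exit for organic cations such as metformin. It measured 6.88, 11.3 and 8.89 FPKM in fat-1 and 12.3, 19.5 and 12.6 FPKM in WT. It was the only efflux gene with every fat-1 library below every WT library (-0.65 ± 0.23 (SE); limma adjusted p = 0.415).

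**Figure D2:**
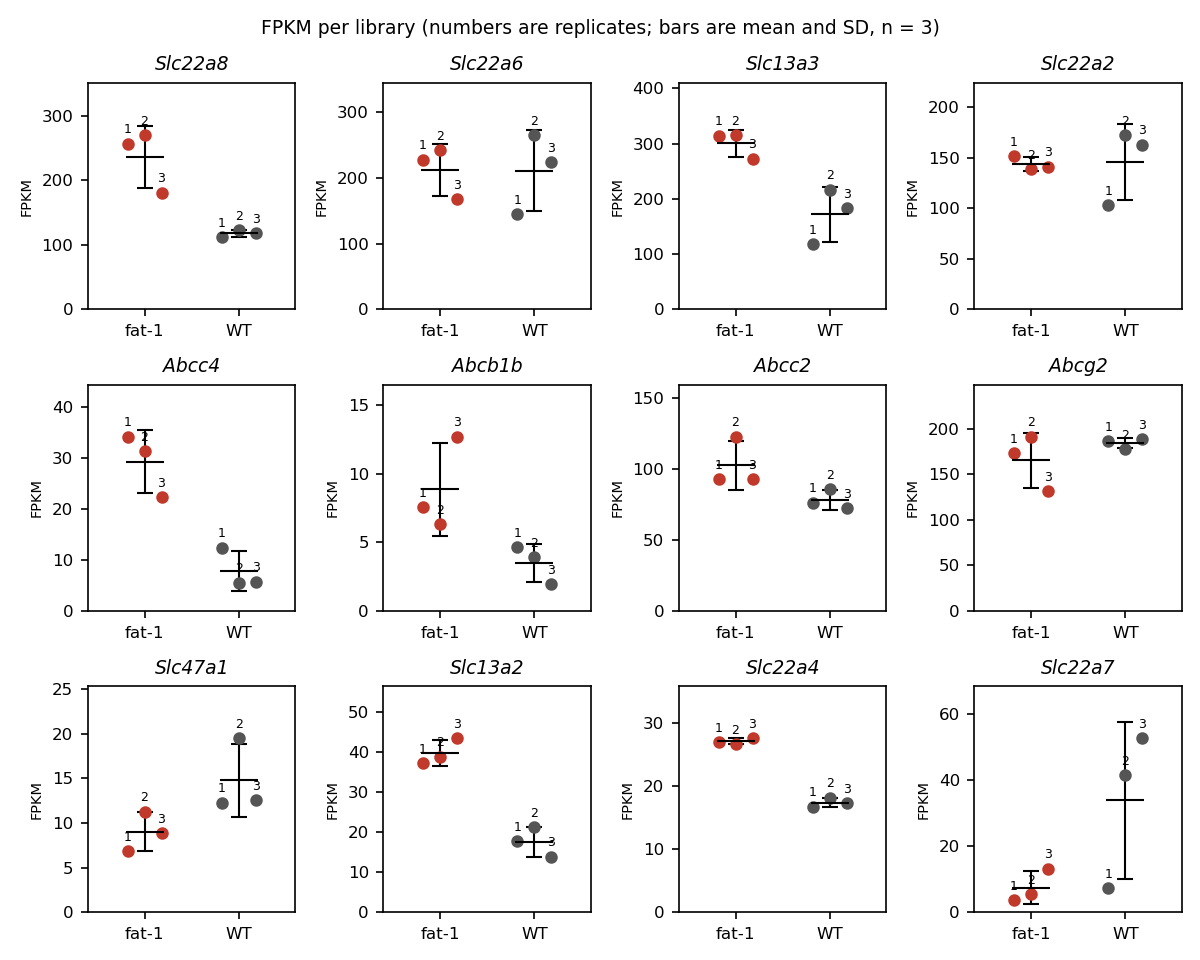
FPKM per library of 12 transporter genes in fat-1 (red) and WT (grey) kidneys, each axis starting at 0, with mean and SD (n = 3). Slc22a8, Slc13a3, Abcc4, Abcb1b, Abcc2, Slc13a2 and Slc22a4 show fat-1 libraries above all WT libraries, Slc47a1 shows them below, and Slc22a6, Slc22a2, Abcg2 and Slc22a7 overlap.

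Set against each other, the 2 steps each held genes of both directions. Of 6 basolateral uptake members 4 were on the positive side, their median was 0.02, and 2 had separated groups, both higher in fat-1. Of 6 apical efflux members 4 were positive as well, their median was 0.65, and 5 had separated groups, 4 higher and 1 lower. Slc47a2 of the efflux list was not analysed here. Over all tested genes, 8.33% had fat-1 libraries above WT and 6.86% below. The mean log2(FPKM + 1) over the efflux members was 4.58, 4.72 and 4.62 in fat-1 libraries and 4.33, 4.08 and 3.78 in WT libraries, each fat-1 value above each WT value. Over the uptake members it was 6.92, 6.74 and 6.88 in fat-1 and 6.23, 6.87 and 6.65 in WT, which overlap. Uptake minus efflux was 2.35, 2.02 and 2.26 in fat-1 and 1.90, 2.78 and 2.87 in WT. On this scale WT replicate 1 was the lowest of the 6 libraries and the other WT libraries were the highest.

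**Figure D3:**
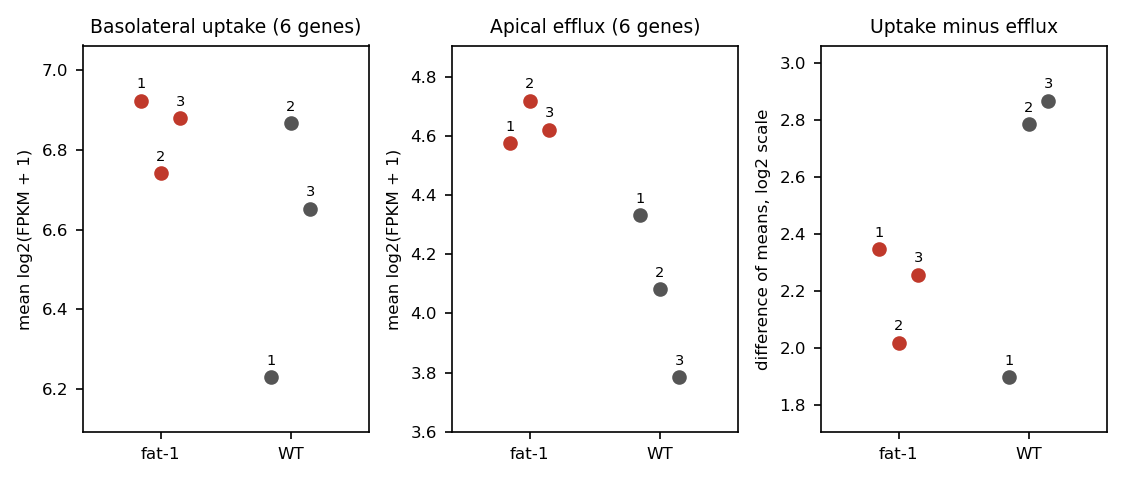
Mean log2(FPKM + 1) over the 6 basolateral uptake genes, over the 6 apical efflux genes, and the first minus the second, per library, with fat-1 in red and WT in grey (axes do not start at 0). Fat-1 libraries lie above all WT libraries for efflux, from 4.58 to 4.72 against 3.78 to 4.33, while for uptake minus efflux WT replicate 1 lies below the fat-1 libraries and WT replicates 2 and 3 above them.

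Summed FPKM, which the most abundant genes dominate, gave another view. The efflux members summed to 318, 367 and 273 FPKM in fat-1 and 295, 294 and 282 FPKM in WT, which overlap, and Abcg2 and Abcc2 were the largest terms. The uptake members summed to 1151, 1151 and 947 FPKM in fat-1 and 668, 985 and 907 FPKM in WT, which also overlap.

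The upstream stretches of Abcc4 and Slc13a3 are shown since both genes had separated groups and each holds 1 match, in capitals, to TGACNNNGC, the core of the antioxidant response element bound by NRF2. Each stretch is the 250 bases before the RefSeq start site (GRCm38.p6, the assembly of mm10). Searched on both strands, that core occurs in 10.2% of the 32851 RefSeq windows of this length, and in 4 of the 27 members whose RefSeq start lies within 50 bases of a listed transcript start. The first share is per window, while a member with several starts is counted once. Both genes are on the minus strand, and the letters read 5′ to 3′ along the gene.
Abcc4 (chr14:118706220-118706469): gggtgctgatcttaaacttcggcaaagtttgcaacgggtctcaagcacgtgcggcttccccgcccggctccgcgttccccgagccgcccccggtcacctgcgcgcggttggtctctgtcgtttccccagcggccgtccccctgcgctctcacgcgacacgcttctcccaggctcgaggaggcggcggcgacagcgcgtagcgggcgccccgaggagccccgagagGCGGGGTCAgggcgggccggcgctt
Slc13a3 (chr2:165473198-165473447): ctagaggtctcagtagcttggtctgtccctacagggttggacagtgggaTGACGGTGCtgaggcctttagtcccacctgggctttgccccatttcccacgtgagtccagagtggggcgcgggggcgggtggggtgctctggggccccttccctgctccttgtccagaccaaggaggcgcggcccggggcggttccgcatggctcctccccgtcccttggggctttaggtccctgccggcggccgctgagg
The match runs from -25 to -17 in Abcc4, on the opposite strand, and from -201 to -193 in Slc13a3, counted back from the start site. A match is a description of letters, not a bound site. Neither match overlaps another searched motif. The other 2 matched members, Slco4c1 with 2 matches and Abcc10 with 1, had overlapping groups and differences of -0.16 and 0.04. Abcb1b, Slc13a2, Slc22a4, Slc13a4 and Slc22a17 also had separated groups and a RefSeq start within 50 bases, but held 0 matches. Slc22a8, Slc22a18 and Abcb1a, with separated groups and RefSeq starts farther off, held 0 as well. Abcc2, with separated groups, holds a match from -98 to -90. It was not counted, since its RefSeq start lies 116 bases from a listed start. A further RefSeq start of Abcc4, 29274 bases from a listed start, also holds 1 match and was not used. The direct repeat of the DR1 kind, bound by receptors of the PPAR and HNF4 type, was found in 0 of the 27 windows and in 0.0335% of all, and the cAMP response element TGACGTCA in 1, at Abcg2, beside 1.55% of all. Nfe2l2, which encodes NRF2, measured 60.8 ± 10.8 FPKM in fat-1 and 48.6 ± 6.37 FPKM in WT (SD, n = 3 each; limma adjusted p = 0.642).

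Among the apical carriers that take solutes back, Slc13a2 and Slc22a4 had the lowest adjusted p of all members. Slc13a2 encodes NaDC1, which reabsorbs citrate and succinate (chr11:78397087-78422217). It measured 37.2, 38.8 and 43.4 FPKM in fat-1 and 17.7, 21.3 and 13.9 FPKM in WT, a wide gap between the groups. The log2 difference was 1.15 ± 0.17 (SE) and the limma adjusted p was 0.0655. It was called when genes were tested from 5 FPKM upward (adjusted p = 0.0445). Slc22a4 encodes OCTN1, a carrier of the antioxidant ergothioneine (chr11:53983123-54028090). It measured 27.0, 26.6 and 27.6 FPKM in fat-1 and 16.7, 18.2 and 17.3 FPKM in WT, with little spread in either group (0.61 ± 0.10 (SE); adjusted p = 0.0809). Over the alternatives tried, its log2 difference lay between 0.57 and 0.64 with an adjusted p of 0.0623 or more.

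Slc22a12 encodes URAT1, the urate reabsorber, and was the most abundant member. It measured 634, 587 and 406 FPKM in fat-1 and 364, 578 and 542 FPKM in WT, with overlapping ranges and a log2 difference of 0.13 (95% interval from -0.44 to 0.71). WT replicate 1 was its lowest library. Slc13a1, the sulfate reabsorber NaS1, measured 262, 207 and 223 FPKM in fat-1 and 218, 198 and 178 FPKM in WT (0.22, interval from -0.12 to 0.55). Slc22a13, encoding the urate and nicotinate carrier OAT10, ranged from 10.8 to 39.8 FPKM in fat-1 and from 14.8 to 33.6 FPKM in WT.

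Slc22a7 and Slco1a1 spread widely among the WT libraries and also varied among the fat-1 libraries. Slc22a7, encoding OAT2, which in the rodent kidney lies on the apical side of the late proximal tubule, measured 3.77, 5.60 and 13.3 FPKM in fat-1 and 7.32, 41.7 and 52.8 FPKM in WT. WT replicate 1 lay inside the fat-1 range, so the groups overlapped, and the log2 difference of -1.80 ± 0.76 (SE) had an adjusted p of 0.502 in limma. Without that library the difference was -2.64. Slco1a1, an apical carrier that depends on androgen in mouse kidney, measured 34.1, 37.3 and 12.0 FPKM in fat-1 and 10.1, 52.1 and 54.0 FPKM in WT. WT replicate 1 and fat-1 replicate 3 were the low libraries.

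Other Slc22a genes on chromosome 19 varied in different ways. Slc22a28, a rodent carrier of the organic anion family, measured 45.0, 69.0 and 43.3 FPKM in fat-1 and 65.4, 120.4 and 126 FPKM in WT (log2 difference -0.95 ± 0.30 (SE); limma adjusted p = 0.333). WT replicate 1 again sat at the level of fat-1 replicate 2. Slc22a30 measured 80.3, 115 and 62.6 FPKM in fat-1 and 67.5, 136 and 127 FPKM in WT. Its transcripts share 1042 windows of 50 bases with Slc22a28, or 53.3% of those of Slc22a28, so these values are uncertain as separate genes. Slc22a19, encoding the rodent urinary anion carrier OAT5, measured 10.9, 7.78 and 25.8 FPKM in fat-1 and 14.7, 40.1 and 29.1 FPKM in WT. These 3 genes had WT replicate 1 as their lowest WT library. Slc22a26 measured 7.12, 7.42 and 17.0 FPKM in fat-1 and 4.81, 12.9 and 8.63 FPKM in WT, a log2 difference of 0.22. Slc22a29 measured 0.402, 1.54 and 1.06 FPKM in fat-1 and 1.91, 1.71 and 1.10 FPKM in WT, where WT replicate 1 was the highest library.

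All 5 markers of the S3 segment, the last part of the proximal tubule, had a negative log2 difference with overlapping groups. Their patterns over the libraries differed. The 5 markers, none at 0, summed to between 914 and 1348 FPKM in fat-1 and between 1105 and 1689 FPKM in WT, with a median log2 difference of -0.87 and 0 called. Acsm3 among them measured 30.3, 63.7 and 48.2 FPKM in fat-1 and 29.1, 180.1 and 128 FPKM in WT, low in WT replicate 1. Slc7a13 measured 145, 277 and 282 FPKM in fat-1 and 281, 521 and 481 FPKM in WT, and Cyp7b1 23.3, 7.71 and 87.5 FPKM in fat-1 and 23.4, 83.7 and 57.1 FPKM in WT, both also lowest among WT in replicate 1. Napsa measured 732, 510.0 and 871 FPKM in fat-1 and 711, 779 and 822 FPKM in WT, with fat-1 replicate 3 highest. Atp11a measured 40.5, 55.5 and 59.7 FPKM in fat-1 and 60.8, 125 and 56.7 FPKM in WT, with WT replicate 1 above WT replicate 3. In a list of 7 male-biased kidney genes, none at 0 and 0 called, the androgen-driven Kap measured 6802, 10836 and 9180 FPKM in fat-1 and 6307, 14405 and 17239 FPKM in WT. That list summed to between 7844 and 12310 FPKM in fat-1 and between 7220 and 18907 FPKM in WT, and Kap made up most of it. Of the 7 genes in that list, 5 had a negative and 2 a positive log2 difference, with a median of -0.52. Nudt19 measured 297, 288 and 309 FPKM in fat-1 and 99.2, 232 and 229 FPKM in WT, with every fat-1 library higher (log2 difference 0.77; limma adjusted p = 0.507), while Cyp2e1 differed by 0.01 and Cyp2j13 by -0.52. The S3 and male-biased lists share 3 genes, Acsm3 included. In a list of 2 female-biased kidney genes, both had a positive log2 difference with overlapping groups. Their median was 0.95 and 0 were called. They summed to between 18.8 and 112 FPKM in fat-1 and between 13.2 and 42.2 FPKM in WT. The part of any of these lists in the values of Slc22a7, Slco1a1 and Slc22a28 was not tested.

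**Figure D4:**
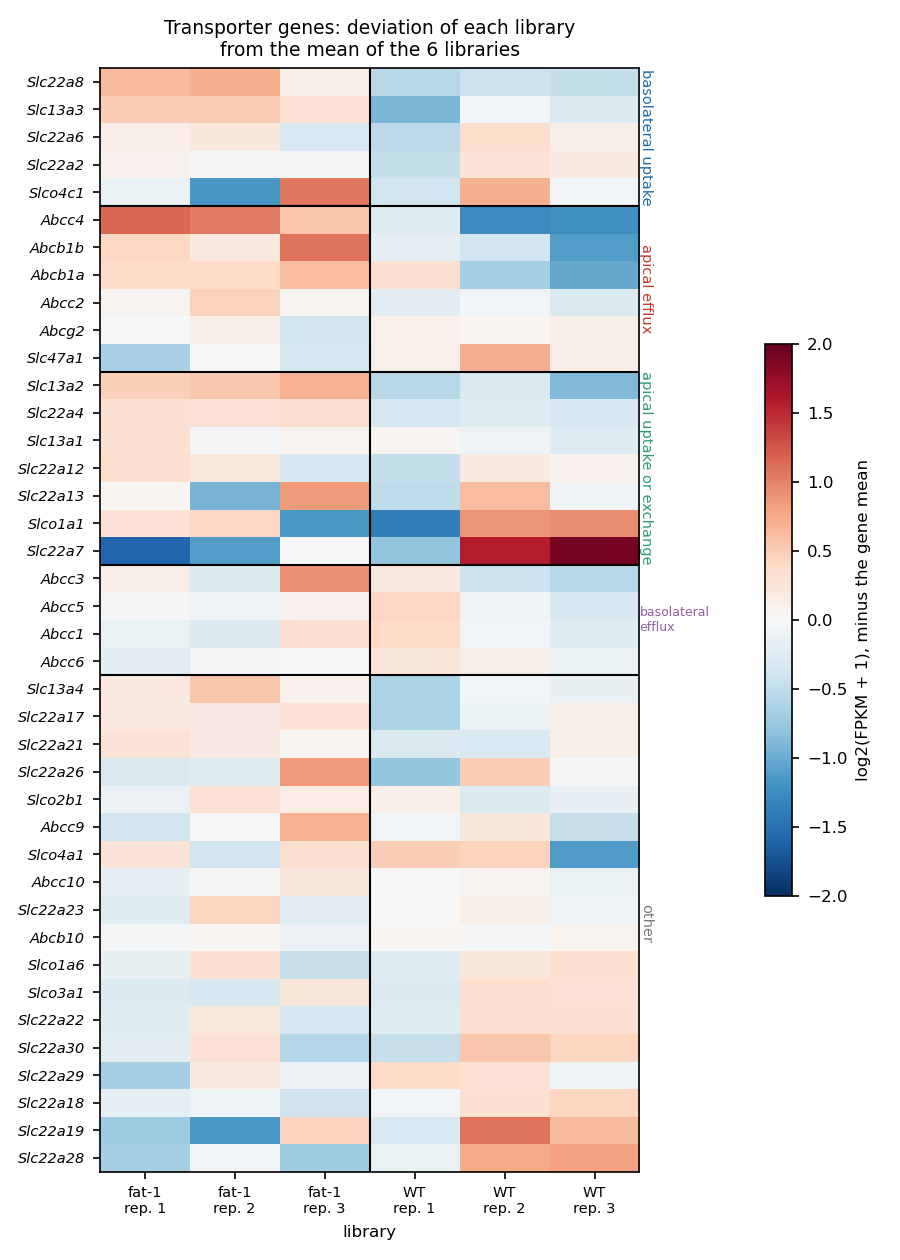
Deviation of each library from the mean of the 6 libraries for 40 of the transporter genes, log2(FPKM + 1), red above and blue below, with fat-1 libraries left and WT libraries right of the line. Abcc4, Slc13a2 and Slc22a4 are red in all fat-1 libraries, while Slc22a7 and Slco1a1 are red in WT replicates 2 and 3 and blue in WT replicate 1.

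Basolateral efflux genes were low. Abcc5, an exporter of cyclic nucleotides, measured 6.63 ± 0.476 FPKM in fat-1 and 6.90 ± 2.11 FPKM in WT. Abcc1, encoding MRP1, the leukotriene and glutathione conjugate pump, measured 2.61 ± 0.855 and 2.77 ± 0.894 FPKM, and Abcc6, a liver and kidney transporter needed for release of ATP, 2.43 ± 0.266 and 2.83 ± 0.485 FPKM in fat-1 and WT (SD, n = 3 each). Abcc3, another exporter of conjugates, was between 0.648 and 2.77 FPKM in fat-1 and between 0.354 and 1.28 FPKM in WT. None of the 4 had separated groups.

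Of the 18 remaining members, 3 had separated groups, 2 higher and 1 lower, close to the share of 15.2% over all tested genes. Slc22a18, an imprinted gene of unsettled substrate, was abundant at 159, 172 and 135 FPKM in fat-1 and 175, 223 and 245 FPKM in WT, with all fat-1 libraries lower (log2 difference -0.46 ± 0.17 (SE); limma adjusted p = 0.422). Slc13a4, a sulfate carrier, was near 1 FPKM, at 1.53, 2.22 and 1.35 FPKM in fat-1 and 0.416, 1.12 and 0.982 FPKM in WT. Slc22a17, a receptor for lipocalin-2, measured 5.28 ± 0.295 FPKM in fat-1 and 3.74 ± 1.19 FPKM in WT (SD, n = 3 each). The other 15 overlapped. Among them Slc22a22, a prostaglandin carrier of mouse kidney, averaged 44.6 ± 9.97 FPKM in fat-1 and 53.9 ± 11.4 FPKM in WT. Slco1a6 averaged 66.8 ± 17.7 and 75.6 ± 15.4 FPKM and Slco3a1, a carrier of prostaglandins and thyroid hormone, 45.7 ± 10.6 and 54.1 ± 12.1 FPKM in fat-1 and WT. Abcb10 of the mitochondrial membrane stayed between 6.90 and 7.96 FPKM in all 6 libraries. The rest, Slc22a21, Slc22a23, Slco2b1, Slco4a1, Abcc9 and Abcc10, had log2 differences between -0.03 and 0.32. Slco4a1 was listed at 0 FPKM in WT replicate 3.

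Some gene sums hid large shifts between listed transcripts. Slc13a3-201 carried 305 and 299.8 FPKM in fat-1 replicates 1 and 2 but 26.4 FPKM in fat-1 replicate 3, where Slc13a3-202 carried 247 FPKM. In WT, Slc13a3-201 carried 112, 27.9 and 10.3 FPKM and Slc13a3-202 6.26, 188 and 173 FPKM in replicates 1 to 3. The major transcript thus differed within each group, and the gene sum is the value compared. With the largest transcript alone, the log2 difference of Slc13a3 was 2.03, still without a call (adjusted p = 0.736). Slco2b1-203 took 92.0% of the gene sum in fat-1 and 41.3% in WT, while Slco2b1-202 took 3.68% and 51.0%, although the sums overlapped. With the largest transcript alone Slco2b1 differed by 1.15, against 0.21 for the sum. Slc22a23 was carried by Slc22a23-205 in 5 libraries and by Slc22a23-201 in WT replicate 3. How the deposited FPKM were divided between transcripts is an estimate by a method that the labels do not name.

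**Figure D5:**
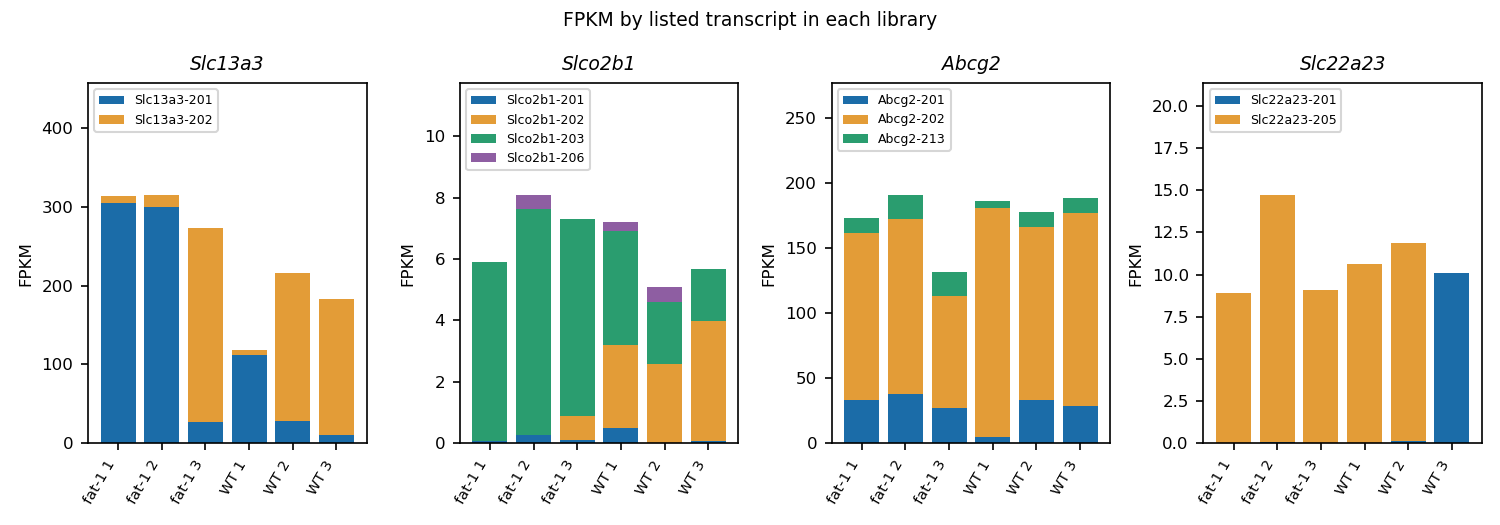
FPKM of each listed transcript of Slc13a3, Slco2b1, Abcg2 and Slc22a23 in the 6 libraries, stacked to the gene sum, fat-1 left and WT right, axes from 0. Slc13a3-201 is the main transcript in fat-1 replicates 1 and 2 and WT replicate 1, and Slc13a3-202 in the other 3 libraries.

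Other genes of the pathway were taken from short lists. Of 8 tested transcription factor genes linked to these transporters, 0 were called. Nr1h4, the bile acid receptor FXR, measured 65.7 ± 6.31 FPKM in fat-1 and 45.3 ± 7.08 FPKM in WT, and Ppara 15.6 ± 6.55 and 5.77 ± 2.66 FPKM, both higher in each fat-1 library than in any WT library. Hnf4a measured 154 ± 8.81 and 162 ± 18.2 FPKM, with overlap, and Nr1i3 was not analysed here. In the apical scaffold list of 5 genes 0 were called. Pdzk1, the scaffold that binds several of these carriers, measured 451 ± 31.0 FPKM in fat-1 and 394 ± 77.5 FPKM in WT with overlap. Slc9a3r1, encoding NHERF1, measured 113 ± 9.92 and 152 ± 8.27 FPKM with every fat-1 library lower (log2 difference -0.42; limma adjusted p = 0.259). Slc9a3r2 of the same family measured 29.7 ± 4.21 and 16.9 ± 2.79 FPKM with every fat-1 library higher (0.78; adjusted p = 0.131).

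Atp1b1, a subunit of the sodium pump, whose gradient drives the dicarboxylate carriers, measured 865, 844 and 841 FPKM in fat-1 and 717, 773 and 699.9 FPKM in WT. Every fat-1 library was higher (log2 difference 0.22; limma adjusted p = 0.616). Of 4 tested urate and apical anion partners 0 were called. Slc16a9 had separated groups, at 57.5 ± 5.06 FPKM in fat-1 and 41.8 ± 6.44 FPKM in WT, and Slc17a1 measured 308 ± 36.8 and 282 ± 85.0 FPKM with overlap. Slc17a2 was not analysed here. The family genes outside the rule also overlapped: Slc22a5, the carnitine carrier, measured 99.8 ± 19.5 and 84.4 ± 5.80 FPKM, and Slco2a1, the prostaglandin transporter, 5.55 ± 0.781 and 4.72 ± 1.66 FPKM in fat-1 and WT (SD, n = 3 each).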

How the data were processed

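Kidney RNA from 24-month-old mice was sequenced in 3 fat-1 and 3 WT libraries. The authors deposited FPKM per transcript in 1 table for each sample. DESeq2 1.20.0, featureCounts 1.5.0-p3 and HISAT2 2.0.5 are named, with build mm10, per the submitters' processing notes. Which of them made the FPKM was not stated in the labels. The tables hold 27486 protein-coding transcripts, each reaching 0.5 FPKM somewhere, so gene sums can miss minor transcripts. FPKM also moves with how reads are split between transcripts and near-identical genes.

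Values were summed per gene and tested in limma 3.58.1 (R 4.3.3) on log2(FPKM + 1), using robust variances that follow the mean level, no covariates and no rescaling, over the 11698 genes with 1 FPKM in 3 libraries. This scale understates changes of low genes. The Benjamini-Hochberg adjustment ran over all of these. In the low values of single-transcript genes, between 19.8% and 25.3% lay within 0.05 of a whole multiple of a fitted step (10% if evenly spread), so reads could not be recovered, depth is unknown and counting error is not estimated. In every pair of libraries, 0 genes had equal values above 0. Coordinates are those of the tables. Gene names were matched for 13670 identifiers. Promoters are RefSeq's (GRCm38.p6), matched for 32 of 41 members. Sequence overlap used GENCODE M21. Python 3.11.15 served for joins and plots.

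Values of some genes, 1 member among them, are not reported here, though counts, sums and medians include them. Members, roles and lists were chosen with earlier results of these data known. Values per library are given for members of separated groups with a log2 difference of 0.5 or more and for a fixed set. They are given for the 3 most abundant in each role, apart from basolateral efflux, and for further members chosen after their values were seen. Basolateral efflux members are given as mean and SD or as a range. Alternatives covered the pseudocount (0.1), filters, scaling, the largest transcript, robust estimation and each library left out.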

Additional observations from a re-analysis of the deposited data

How the results depend on the processing

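No member was called in the main comparison. A single member was called under each of 3 alternatives: with a filter of 5 FPKM (1 member, Slc13a2), with libraries rescaled to an equal sum (1 member, Slc22a8) and without WT replicate 1 (Abcc4), so the count lay between 0 and 1 when single libraries were left out. Of the 41 members, 28 kept their direction under every alternative that tested them. The median over the apical efflux members was 0.38 with the 5 FPKM filter, which drops Abcb1a, and otherwise between 0.48 and 0.85. The median over the uptake members lay between -0.19 (without WT replicate 1) and 0.21.

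Over all genes the 21 calls became 4 with no filter, 42 with the 5 FPKM filter, 52 with an equal sum, 10 with median-of-ratios factors, 34 with quantile normalization and 3 with the largest transcript alone. They lay between 0 and 1 with any single library other than WT replicate 1 left out, were 26 without that one, and were 0 when WT replicate 1 and fat-1 replicate 3 were both left out, a setting chosen after seeing the data (1461 genes at an unadjusted p under 0.05 there). Higher and lower calls were 14 and 7, against 6 and 4 with median-of-ratios factors, 41 and 11 with an equal sum, 2 and 2 with no filter and 3 and 0 with the largest transcript. The causes were not tested.

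Members close to 0 changed sign when 1 library, or both of those, was left out, with log2 differences from -0.072 to 0.33 (Slc22a12), -0.72 to 0.44 (Slc22a13), -1.06 to 0.20 (Slco1a1), -0.18 to 0.18 (Abcc5), -0.24 to 0.12 (Abcc1), -0.21 to 0.22 (Slc22a6), -0.22 to 0.15 (Slc22a2), -0.97 to 0.38 (Slco4c1), -0.49 to 0.52 (Slc22a26), -0.11 to 0.44 (Abcc9), -0.41 to 0.40 (Slco4a1), -0.056 to 0.14 (Abcc10) and -0.24 to 0.089 (Slc22a23). Slc22a2 differed by -0.0046 with median-of-ratios factors and -0.0037 with quantile normalization. With the largest transcript alone, Abcc10 differed by -0.15 and Slc22a23 by 1.13. No paired analysis was possible because the labels give no number that links a fat-1 sample to a WT sample.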
